A study of Sorghum bicolor with 12 samples.

Results

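SbBRI1 is the brassinosteroid receptor gene of sorghum (Sorghum bicolor), and it is the gene whose sequence differs between the lines of this study. It was followed here as 1 row, Sobic.003G277900, of the 20818 gene identifiers counted in 12 root libraries. That this identifier is SbBRI1 is background knowledge, and it was not checked against an annotation here, because the counts carry identifiers without names. NIL-bri1-72 is a backcrossed near-isogenic line (BC2F3) from EMS mutagenesis, a chemical treatment that causes single base changes, and it carries such a change in the extracellular region of SbBRI1. NIL-WT-72 is its sister line without that change. Roots were taken from mature plants of each line that were either watered or held under drought at 30% of field capacity, the amount of water a soil retains after draining. Each of the 4 groups had 3 biological replicates. Each genotype is represented by 1 line, so other segments that differ between the lines cannot be told apart from the base change in the receptor. Read counts per gene do not show the base change itself, so they do not check which line is which. Markers of root tissue could not be looked up, since no identifier was paired with a name.

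Brassinosteroids are steroid hormones that promote cell elongation and division in plants. In Arabidopsis, where the pathway is best known, BRI1 is a receptor kinase of the plasma membrane whose extracellular leucine-rich repeats bind the hormone together with a co-receptor of the SERK family. The signal inactivates the kinase BIN2, and transcription factors of the BES1 and BZR1 family then enter the nucleus and change gene expression. Brassinosteroid-activated BES1 and BZR1 also repress genes of hormone synthesis in Arabidopsis, a negative feedback. The study asked which transcripts SbBES1, a factor downstream of the receptor, controls early in drought. For the receptor gene itself the design asks whether its transcript depends on the water regime, on the line, or on both together.

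Libraries held between 18640601 and 33296273 counted reads. NIL-WT-72 water replicate 1 stood apart: across all genes its root-mean-square deviation from its group mean was 0.396 log2 units, against 0.183 to 0.339 for the other 11 libraries. On the second principal component (18.9% of the variance) it lay at 61.8, NIL-WT-72 drought replicate 3 lay next at 23.2, and the other 10 libraries lay between -19.4 and 0.634. On the first component (28.3%) the watered libraries lay between -46.4 and -6.65. The droughted libraries lay between 23.4 and 40.3 there, except NIL-bri1-72 drought replicate 1 at -1.56 and NIL-WT-72 drought replicate 3 at -0.00216.

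SbBRI1 was readily detected in every root library, with 1674 to 3319 reads. Levels are given as CPM, read counts set relative to library size after scaling by TMM, a factor that evens out library composition. In watered NIL-WT-72 the CPM was 83.8, 88.5 and 88.9 in replicates 1, 2 and 3, a mean of 87.1 ± 2.81 (SD, n = 3). Droughted NIL-WT-72 had 83.9, 86.5 and 87.7 CPM, a mean of 86.0 ± 1.95 (SD, n = 3). The watered and droughted libraries of the wild-type line thus covered the same range. Watered NIL-bri1-72 had 98.1, 93.4 and 89.1 CPM, a mean of 93.5 ± 4.49 (SD, n = 3). Droughted NIL-bri1-72 had 89.3, 92.8 and 93.5 CPM, a mean of 91.9 ± 2.25 (SD, n = 3). In the mutant line, too, the regimes overlapped, and the highest of all 12 values was that of watered replicate 1. Over the 12 libraries the CPM of SbBRI1 ranged 1.17-fold, from 83.8 to 98.1.

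**Figure D1:**
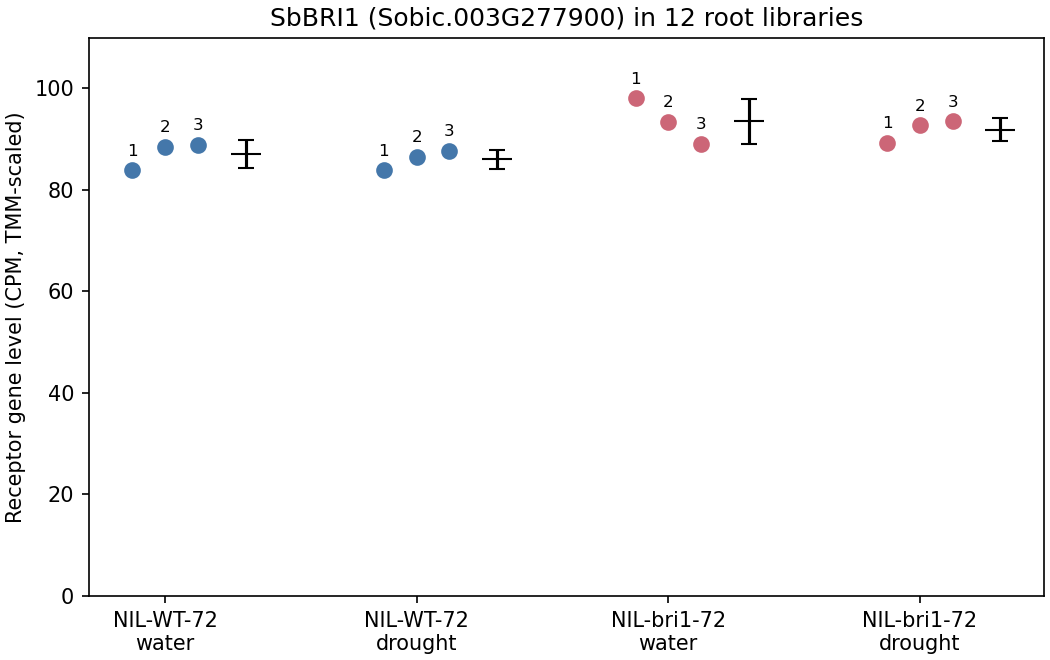
CPM of SbBRI1 (TMM-scaled, vertical axis from 0) in each library, by line and regime, with the replicate number above each point and the group mean ± SD (n = 3) in black. All 12 points lie between 83.8 and 98.1 CPM, and the points of NIL-bri1-72 lie slightly above those of NIL-WT-72.

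Ordered from high to low, the group means ran from watered to droughted NIL-bri1-72 and then from watered to droughted NIL-WT-72. Neighbours of the same line in this order overlapped. Droughted NIL-bri1-72 and watered NIL-WT-72, the middle neighbours, did not overlap, at 89.3 to 93.5 against 83.8 to 88.9 CPM, but they differ in both line and regime and were not tested against each other.

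Among the genes listed, SbBRI1 took a high share of the reads in roots of both lines. Its read count exceeded that of 85.5% to 88.6% of the listed genes, depending on the library, and stood between 2375 and 3013 places from the top. It was 4.62 to 5.48 times the count of the median listed gene. These ranks compare read counts, which grow with transcript length, and lengths of these gene models were not used here. They are also ranks among listed genes only, because the table holds no gene with a 0 in any library and its smallest count in a library was 8 to 13. That smallest count was 8 in the library with the fewest reads and 13 in the library with the most. Genes with lower counts in any library are thus absent, also from the shares given over all genes. By line, watered NIL-bri1-72 stood above 87.8% ± 0.682 of genes and watered NIL-WT-72 above 86.3% ± 0.762 (SD, n = 3). In drought the shares were 87.4% ± 0.530 and 86.5% ± 0.498 (SD, n = 3).

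The transcript did not pass the test for a drought response in either line. The estimated drought change was -1.20% in the wild-type line, with a 95% interval from -11.0% to 9.66%. In the mutant line it was -1.76%, with an interval from -11.5% to 9.02%. The edgeR quasi-likelihood test, with Benjamini-Hochberg adjustment over all 20818 genes and a threshold of 0.05, gave adjusted p = 0.966 and 0.962. Averaged over both lines the drought change was -1.48%, with an interval from -8.48% to 6.05% and an edgeR adjusted p = 0.888. On the log2 scale this is -0.022 (SE 0.048), and 11.2% of the genes had a smaller absolute change. Leaving out replicate 3 of watered NIL-bri1-72 moved it to -0.038 and leaving out replicate 1 to -0.0042, the extremes over the 12 libraries. As background, this test called 1.28% of all genes for drought averaged over lines (266 genes), 0.0144% in the wild-type line (3) and 0% in the mutant line (0, with 1518 genes at an unadjusted p below 0.05). DESeq2 called 1023, 305 and 202 genes for the same contrasts, and with 1 library left out the edgeR counts ranged from 41 to 695, from 0 to 55 and from 0 to 14. An exact permutation test of the 6 droughted against the 6 watered libraries, with regimes exchanged within lines, gave p = 0.43, two-sided. In each line alone, where 3 against 3 cannot go below p = 0.1, the exact permutation p was 0.6 for the wild-type and 0.7 for the mutant line. None of these tests pairs same-numbered libraries of a line. A replicate block within the line, added after the data had been seen, gave log2 fold changes of -0.017 in the wild-type and -0.023 in the mutant line. Their edgeR adjusted p was 0.967 and 0.958. The direction within a line was not fixed by these data. In the wild-type line the log2 fold change was -0.017 and became 0.014 under upper-quartile scaling. In the mutant line it was -0.026 and became 0.0071 without watered replicate 1. Bulk root RNA was measured, so fewer cells with the transcript and less of it per cell cannot be told apart.

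The interaction asked whether the base change in the receptor goes with another drought response of the receptor's own transcript. Subtracting the wild-type response from the mutant response left -0.0082 log2 units (SE 0.097, edgeR adjusted p = 1.00, exact permutation p = 0.95). Its 95% interval, from -0.22 to 0.20, corresponds to -14.2% to 15.2%. The sign of the interaction turned when replicate 1 of watered or of droughted NIL-bri1-72 was left out, to 0.022 and 0.0037, and when NIL-WT-72 water replicate 1 or NIL-WT-72 drought replicate 3 was left out, to 0.018 and 0.0037.

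Between the lines, the CPM of SbBRI1 was estimated at 7.40% higher in NIL-bri1-72 in water and at 6.79% higher in drought. The 95% intervals of these differences, from -3.24% to 19.2% and from -3.78% to 18.5%, include 0. Neither passed the edgeR test (adjusted p = 0.890 in water and 1.00 in drought). The edgeR test called 0% of all genes in water, in drought and for the interaction, where 1091, 515 and 232 genes had an unadjusted p below 0.05 and DESeq2 called 4, 1 and 0. In water all 3 NIL-bri1-72 libraries lay above all 3 NIL-WT-72 libraries, which held for 6.09% of all genes. The same was found in drought, where it held for 3.75% of all genes. Each comparison alone gave an exact permutation p = 0.1, the smallest that 3 against 3 allows.

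**Figure D2:**
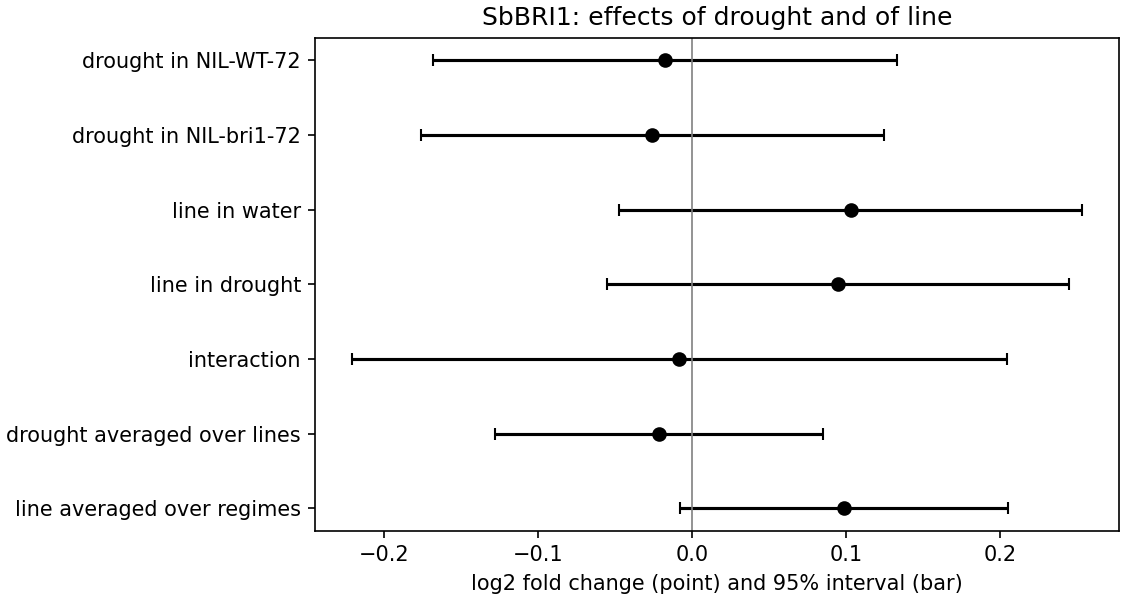
Log2 fold change of SbBRI1 (points) with its 95% interval from the edgeR fit (bars) for the 7 contrasts. The drought contrasts and the interaction lie near 0, and the line contrasts lie near 0.10, with intervals that include 0 in every case.

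Averaged over both regimes, NIL-bri1-72 exceeded NIL-WT-72 by 7.09%, a log2 fold change of 0.10 (SE 0.05). The 95% interval runs from -0.518% to 15.3%, so its upper bound is a 1.15-fold difference. In edgeR the unadjusted p was 0.0655 and the adjusted p = 0.739, and SbBRI1 stood at place 1805 of the 20818 genes by p. No gene passed for this contrast by edgeR (0 of 20818, while 1351 genes, 6.49%, had an unadjusted p below 0.05) or by limma voom (0), and DESeq2 called 32. DESeq2 gave SbBRI1 an unadjusted p of 0.0279 and an adjusted p = 0.574. The adjusted p over all alternatives ranged from 0.574 to 1.00.

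The line difference was also set against the replicates of SbBRI1 alone. The 6 NIL-bri1-72 libraries ranged from 89.1 to 98.1 CPM, with a mean of 92.7 ± 3.30 (SD, n = 6). The 6 NIL-WT-72 libraries ranged from 83.8 to 88.9 CPM, with a mean of 86.6 ± 2.24 (SD, n = 6). All 6 libraries of the mutant line thus lay above all 6 of the wild-type line, but the gap between the nearest libraries was 0.179 CPM. An exact permutation test with lines exchanged within regimes gave p = 0.005, two-sided, the smallest that its 400 relabelings allow, and 0.035 after Benjamini-Hochberg adjustment over the 7 contrasts of this gene. That adjustment does not cover the other genes of the table. The relabelings treat watered and droughted libraries as independent. Across genes, however, deviations of same-numbered libraries of a line correlated between regimes, at 0.125 to 0.360 in NIL-bri1-72 and 0.0940 to 0.270 in NIL-WT-72. With same-numbered libraries of a line kept together as 3 sets against 3, the exact permutation p was 0.1, the smallest possible. A replicate block in edgeR raised the unadjusted edgeR p to 0.104. That block fits an effect per replicate number shared by both lines, so it does not model sets within a line. Separation within both regimes in this direction held for 0.519% of all genes, 108 in number, and separation of all 6 from all 6 libraries for 0.211%, 44 in number. The log2 fold changes of the 108 genes ranged from 0.08 to 1.57 with a median of 0.30, and 5 of them were smaller than that of SbBRI1.

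The separation of the lines depended on the scaling and on the reads drawn, though the direction of the difference did not. With RLE scaling in edgeR in place of TMM, the lowest NIL-bri1-72 and the highest NIL-WT-72 value were both 89.1 CPM and overlapped. By library totals alone they were 88.4 and 89.8 CPM. With libraries thinned to equal depth and scaled by TMM, both were 89.6 CPM and overlapped. The exact permutation p was 0.01 in each case, or 0.07 after adjustment over the 7 contrasts. The adjusted exact permutation p also rose above 0.05 when single wild-type libraries were left out. The lines stayed separated within both regimes whichever library was left out. No relabeling in the same direction could therefore exceed the observed difference. With unequal group sizes some relabelings in the opposite direction can, and these raised the two-sided p. The rise thus does not measure how far the line difference rests on a single library. Without NIL-WT-72 water replicate 1, which held the lowest CPM of SbBRI1 and stood apart across all genes, the averaged log2 fold change was 0.09 and the adjusted exact permutation p was 0.14. Leaving out NIL-WT-72 water replicate 2, water replicate 3 or drought replicate 1 gave an adjusted exact permutation p = 0.105 each, with averaged log2 fold changes of 0.105, 0.101 and 0.087. Leaving out drought replicate 2 gave 0.07, with a log2 fold change of 0.101, in place of 0.099 with all libraries. Without NIL-bri1-72 water replicate 1, which held the highest CPM, the averaged log2 fold change was 0.08 and the log2 fold change in water 0.07 in place of 0.10.

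The small line difference came with an unusually even transcript. Within groups the SD of log2 CPM was 0.0483 for SbBRI1, against a median of 0.215 over all genes, and 0.283% of genes had a lower one. Among the 2725 genes within 1.5-fold of its mean CPM, SbBRI1 included, the median SD was 0.150 and 23 genes had a lower one. Over all 12 libraries, lines and regimes included, the range of SbBRI1 was 0.23 log2 units against a median of 0.75, and 1.43% of genes had a smaller range. Part of this spread is counting error: the counts of SbBRI1 by themselves give an SD of 0.0296 log2 units. The variance between replicates was 2.66 times that of counting alone, where the median was 24.9 times for genes of similar CPM. Counting error here treats reads as independent molecules, which reads without molecular identifiers need not be.

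**Figure D3:**
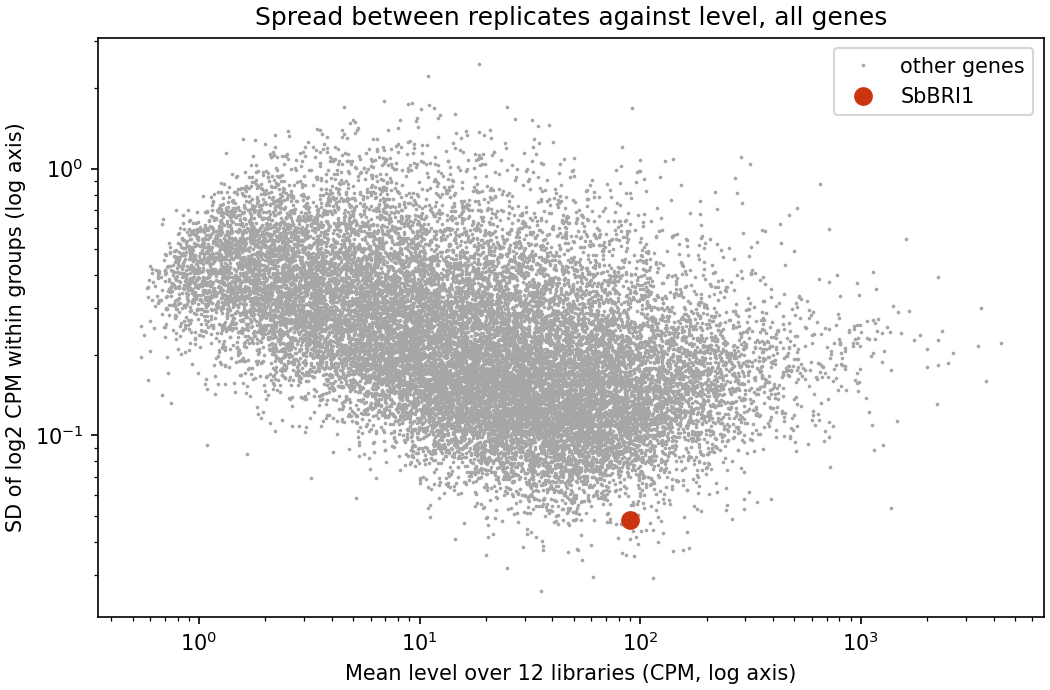
SD of log2 CPM within groups against mean CPM over the 12 libraries, both on log axes, with 1 point per gene and SbBRI1 as the large red point. At a mean of 89.6 CPM and an SD of 0.0483, SbBRI1 lies at the lower edge of the cloud.

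The edgeR standard error of 0.05 for the averaged line difference also draws on the spread of other genes of similar abundance, because the spread is estimated partly over all genes. The biological coefficient of variation assigned to SbBRI1 was 0.0850, against a median of 0.163 over all genes and of 0.120 over genes of similar CPM. Split into parts, 59.2% of the variation of SbBRI1 over the 12 libraries lay between lines, 2.70% between regimes and 0.0861% in the interaction, and 38.1% remained within groups. Over all genes the median share between lines was 5.49% and that between regimes 8.57%. A share between lines smaller than that of SbBRI1 was found for 99.7% of genes. By size the line difference was not unusual: 51.7% of genes had a smaller absolute log2 fold change averaged over regimes.

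Neighbouring genes were examined because a line selected for 1 locus can keep a linked segment around it. Identifiers were ordered by their number, which by the convention of these gene models follows the chromosome. By that number SbBRI1 is on chromosome 3, at place 1793 of the 3017 listed identifiers. Of the 100 identifiers within 50 places of it on either side, 7 had an unadjusted p below 0.05 for the averaged line difference, 4 higher and 3 lower in NIL-bri1-72. That is a share of 7% against 6.49% over all genes. Of the 100, 0 passed the edgeR threshold (lowest adjusted p = 0.739). In water 7 had an unadjusted p below 0.05, against a background of 5.24%, and in drought 2 did, against 2.47%. Within 100 places on either side the share in water was larger, 21 of 200 genes or 10.5%, with 14 lower and 7 higher in NIL-bri1-72, and 18 of 200 or 9% for the averaged difference, 11 lower and 7 higher. These counts were not tested against the background.

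**Figure D4:**
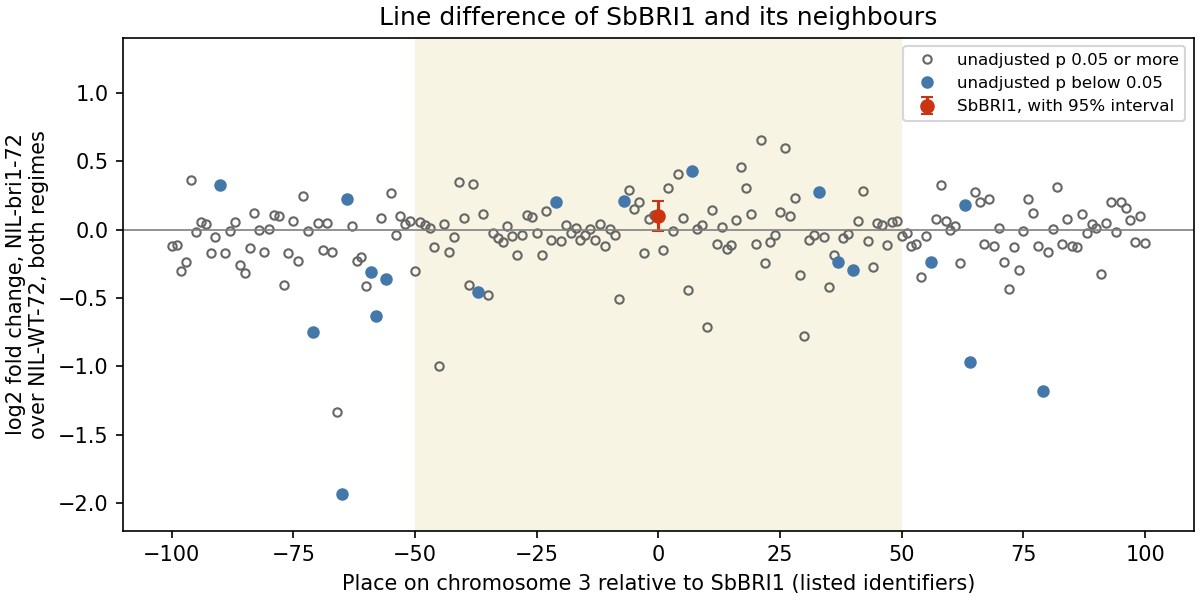
Averaged log2 fold change between the lines for SbBRI1 (red, with its 95% interval) and for 100 listed identifiers on either side, by place on chromosome 3, with the inner 50 places on either side shaded. Filled blue points have an unadjusted p below 0.05, and those within the shaded window number 7.

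Separation of the lines was not shared by these neighbours. Of the 100, 0 were separated within both regimes, where 0.802% of all genes were, in either direction. Such a share corresponds to less than 1 gene in 100, so a count of 0 does not set the neighbours apart. The nearest such gene lay 478 places before SbBRI1 and 170 places after it, and chromosome 3 held 23 in all, SbBRI1 included. The median absolute log2 fold change of the 100 neighbours was 0.11, against 0.09 over all genes, and 53 of the neighbours had a larger one than SbBRI1. Over all genes, 51.7% had a smaller one than SbBRI1, so on this averaged measure the neighbours lay near the background. Within each regime their median was further above that of all genes, at 0.150 against 0.126 in water and 0.146 against 0.106 in drought. These differences were not tested.

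The identifiers listed next to the receptor gene differed from it in CPM. Sobic.003G277800, just before it, was at 173.1 to 280.9 CPM, and its averaged log2 fold change between lines was 0.11 (SE 0.11, edgeR adjusted p = 0.849). Sobic.003G278000, just after it, was at 1.75 to 4.86 CPM, and its averaged value was -0.15 on the same scale (SE 0.21, edgeR adjusted p = 0.900). Over the 12 libraries the log2 CPM of SbBRI1 correlated with theirs at Pearson r = 0.0808 and -0.0965, given as a description over libraries that share line, regime and scaling. No source used here gives the strand setting of the counting, and reads of an overlapping or antisense gene could be counted in SbBRI1.

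The genes whose pattern was most like that of SbBRI1 were sought among 13284 genes with a mean of at least 10 CPM, by the Pearson correlation of log2 CPM over the 12 libraries. Over these genes the correlation had a median of 0.0102, 23 genes lay above 0.8 and 7 below -0.8. Sobic.003G364900 was most alike, with r = 0.888, and Sobic.001G433400 came next, with r = 0.884. The likeness is given as a description, since the libraries share line and regime and the genes were chosen for it.

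Sobic.001G433400, on chromosome 1, was at 124.1 to 149.5 CPM in the 6 NIL-WT-72 libraries and at 151.2 to 179.8 CPM in the 6 NIL-bri1-72 libraries. Its lines were separated, as those of SbBRI1 were, with an averaged log2 fold change of 0.28 (edgeR adjusted p = 0.739). Sobic.003G364900, on chromosome 3, was at 16.7 to 22.5 CPM in NIL-WT-72 and at 20.4 to 27.9 CPM in NIL-bri1-72, so its lines overlapped. With group means removed, the correlations with SbBRI1 were 0.774 for Sobic.003G364900 and 0.684 for Sobic.001G433400. By that measure other genes were nearer: Sobic.010G235200 was highest, at 0.923 (named after its value was seen), and 0 of the 4 genes named here were among its 2 highest or 2 lowest.

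Most opposed were Sobic.006G235900 with r = -0.872 and Sobic.003G161500 with r = -0.845. Sobic.006G235900, on chromosome 6, was highest in replicate 1 of watered and of droughted NIL-WT-72, at 25.6 and 25.2 CPM, the libraries in which SbBRI1 was lowest. Sobic.003G161500, on chromosome 3, was lowest in NIL-bri1-72 water replicate 1, at 127.1 CPM, the library in which SbBRI1 was highest. Their averaged log2 fold changes between lines were -0.21 and -0.23 (edgeR adjusted p = 0.739 each). With group means removed their correlations with SbBRI1 were -0.805 and -0.707. These 4 identifiers are not paired with a gene name here, and nothing is said of their function.

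**Figure D5:**
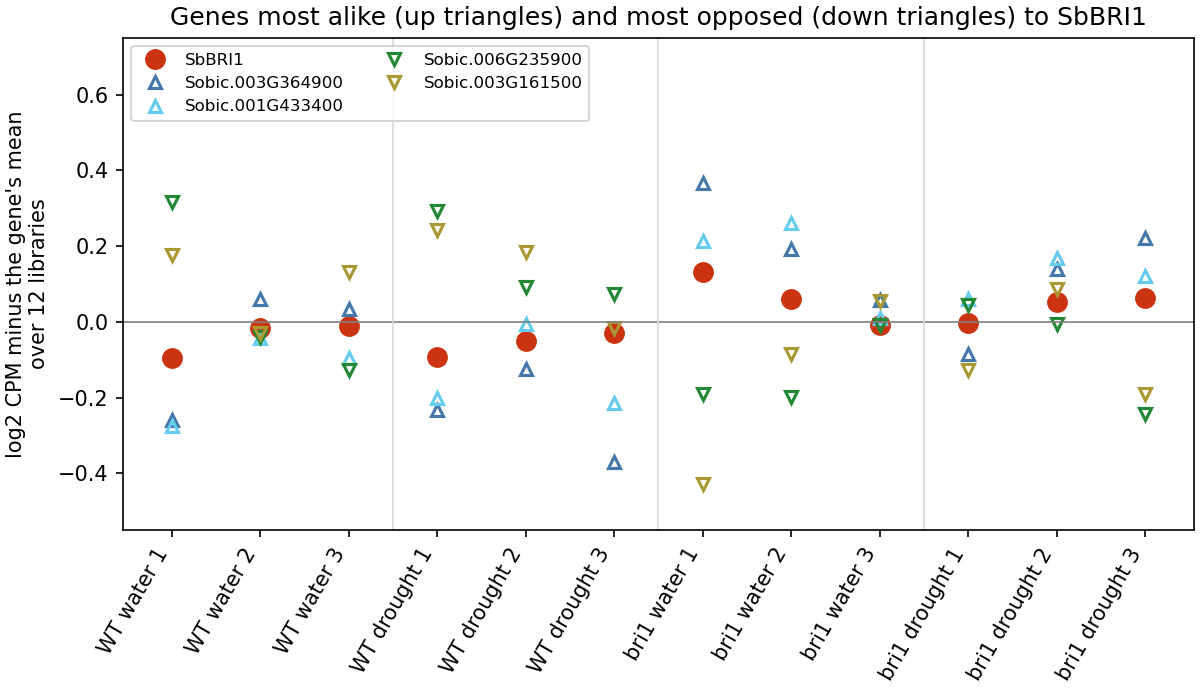
Log2 CPM of SbBRI1 (red circles) and of the genes most alike (up triangles) and most opposed to it (down triangles), each minus its own mean over the 12 libraries, by library. SbBRI1 moves within a range of 0.23 log2 units, less than each of the other 4 genes.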

How the data were processed

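Raw counts of reads for 12 libraries were deposited as 1 table, with 0 columns of other samples. Per the submitters' processing notes, the tools used included HISAT2 2.1.0, featureCounts 1.6.2, Trimmomatic 0.38 and FastQC 0.11.2. The parameters, annotation, genome build and strand setting are not stated in the sources used here. Per the labels' protocols, libraries were stranded and paired-end.

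Groups and replicate numbers came from sample titles. All 20818 genes passed filterByExpr and were fitted with edgeR 4.0.16 (R 4.3.3): TMM scaling, 4 group means over 12 libraries, quasi-likelihood tests, Benjamini-Hochberg adjustment. The standard error was the absolute log2 fold change over the square root of F. Exact permutation tests used log2 CPM with a prior count of 2. The edgeR fit was tested on simulated data, with drought changes added to some genes and no line difference. The exact permutation tests, the neighbour counts and the correlations were not tested in this way. DESeq2 1.42.0 and limma 3.58.1 (voom) were alternatives, beside other scalings, filters, a replicate block, thinning to equal depth and leaving out libraries. The gene, the contrasts and the lists were chosen with earlier results of these data known.

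Of the identifiers, 0 matched the 32945 entries of a RefSeq gene table (assembly Sorghum_bicolor_NCBIv3), also after rewriting them as locus tags, so the 7 planned lists of brassinosteroid pathway genes were not applied. Named beside SbBRI1 are the 2 most and the 2 least correlated genes and the adjacent identifier on each side, as planned.

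Deviations from group means of same-numbered libraries correlated at 0.125 to 0.360 between regimes in NIL-bri1-72, all above 0.1, and their numbers were taken to pair the regimes of that line. Values given are from the fit without a block unless the block is named. In NIL-WT-72 same-numbered libraries correlated at 0.0940 to 0.270 between regimes, a range that overlapped that of NIL-bri1-72. Between lines they correlated at -0.330 to 0.0998. Unlike-numbered libraries of a line correlated between regimes at -0.280 to 0.0429 in NIL-bri1-72 and at -0.264 to 0.121 in NIL-WT-72. Deviations from a group mean cancel within the group, which by itself lowers the unlike-numbered correlations where the same-numbered ones are positive. No 2 libraries held identical counts (0 of 66 pairs).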

Additional observations from a re-analysis of the deposited data

How the results depend on the processing

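None of the 7 contrasts of SbBRI1 passed the edgeR, DESeq2 or voom threshold under any alternative run. The line difference kept its sign in water, in drought and on average, with averaged log2 fold changes of 0.08 to 0.12, and averaged drought kept its sign as well, from -0.048 to -0.0042. Drought in NIL-WT-72 turned to 0.014 under upper-quartile scaling. With 1 library left out, drought in NIL-WT-72 ranged from -0.044 to -0.0028 and drought in NIL-bri1-72 from -0.059 to 0.0071, and the interaction from -0.042 to 0.022. Without both NIL-WT-72 libraries that stood apart, an alternative chosen after the data had been seen, the interaction was 0.031, the averaged line difference 0.09 and its exact permutation p after adjustment 0.14. That adjusted exact permutation p was 0.07 with RLE scaling, with library totals and with libraries thinned to equal depth. It ranged from 0.035 to 0.14 with 1 library left out. Leaving out libraries makes the group sizes unequal, so a higher p there does not measure how far the difference rests on the libraries removed. The replicate block over 12 libraries, shared by both lines, left the averaged line difference at 0.10 (SE 0.05, edgeR adjusted p = 0.777). It moved no contrast of SbBRI1 past the edgeR threshold. For the exact permutation test, keeping same-numbered libraries of a line together, a replicate block added after the data had been seen, gave p = 0.1, the smallest it allows. Within NIL-bri1-72 the replicate block gave a drought change of -0.02 (SE 0.09, edgeR adjusted p = 0.958), also added after the data had been seen. By Spearman correlation 2 of the 4 named genes remained the most alike or opposed, and with a minimum of 1 CPM 3 did. Among neighbours, windows of 25 and 100 identifiers on either side gave shares of 6% and 9%. The counting error of SbBRI1 was 1.74% to 2.44% per library, and the variance between replicates was 2.66 times that of counting alone.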
